A study of Homo sapiens with 6 samples.

Results

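ABCA4, ABCA13 and ABCD4 are 3 members of the ATP-binding cassette (ABC) transporter family. They are the rows of the deposited expression table that carry these symbols, 3 of 1705 listed genes. RNA was sequenced from PC9, a human lung adenocarcinoma cell line of epithelial type with a deletion in exon 19 of EGFR, and from its derivative PC9-GR, which carries the same deletion and is resistant to the EGFR inhibitor gefitinib. Each line gave 3 libraries from independent cultures. The parental line is the reference. PC9-GR was selected by raising gefitinib in steps from 0.5 to 10 µM, was then kept at 10 µM, and spent its last 7 days before RNA extraction in drug-free medium. It is a single derived line, so its replicates are cultures of that line and not separate events of resistance.

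ABC transporters use ATP to move substrates across membranes. A complete transporter has a pair of ATP-binding domains, either in a single long chain, as in the A subfamily, or in a dimer of shorter chains, as in the D subfamily. ABCA4 is best known from retinal photoreceptors, where it moves a retinal-lipid conjugate across disc membranes. ABCA13 is a very large A subfamily member whose substrates are less well defined. ABCD4 sits in the lysosomal membrane and is needed for cobalamin (vitamin B12) to leave the lysosome. Other branches of the family, with ABCB1 and ABCG2 as the best-known examples, export drugs.

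The values are FPKM, fragments per kilobase of transcript and per 1000000 sequenced fragments, as deposited. The table is the authors' selection: the smallest absolute log2 ratio in the authors' deposited table is 1.0002, and the largest p-value is 0.04965. Every gene in it, these transporters included, was therefore chosen for a difference between the same 6 libraries, and no test below is independent evidence of a difference. Between 987 and 1002 listed genes reached 1 FPKM in a PC9 library, and between 1116 and 1150 in a PC9-GR library. The FPKM total over listed genes was 28346 to 30541 in PC9 and 16705 to 17114 in PC9-GR. Sequencing depth is unknown because the table holds no counts. No pair of libraries held identical values. Of 6 markers fixed for epithelial cells (EPCAM, CDH1, KRT7, KRT8, KRT18 and KRT19), 0 are listed. Other keratins are in the table, and those named here were chosen after their values were seen. KRT5 had a mean log2(FPKM + 1) of 6.49 in PC9 and 4.12 in PC9-GR, and KRT6A one of 7.18 and 5.96. Both had a lower mean in PC9-GR, as did KRT6B, KRT16 and KRT17. KRT13 had 5.00 in PC9 and 0.606 in PC9-GR. KRT6C went the other way and was low in both lines, at 0.338 and 0.627. Of 9 haematopoietic markers CD68, CORO1A, ITGAM, ITGAX and LYZ are listed, with summed levels of 20.5 to 24.6 FPKM in PC9 and between 46.2 and 57.0 in PC9-GR. Most of that sum is CD68, at means of 18.6 and 38.4 FPKM. CORO1A (means of 2.17 and 4.22 FPKM), ITGAM (0.570 and 7.25) and ITGAX (0.119 and 2.83) were also higher in PC9-GR. LYZ went the other way, at 1.09 and 0.142 FPKM. PTPRC, CD3E and CD14 are not among these 5. The fibroblast list has 1 of 7 in the table (PDGFRB, 0.0661 to 0.143 FPKM in PC9 against 2.38 to 3.77 in PC9-GR) and the airway list 1 of 8 (TPPP3, 0.0907 to 0.316 against 0.401 to 0.500). Of 9 alveolar and 4 endothelial markers, 0 are listed, and the part of such markers in the transporter values was not tested.

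The 3 genes share a coding feature of the family, the Walker A motif, which binds ATP and is also found in other ATP- and GTP-binding proteins. It was searched in frame as a GGN codon, any 4 codons, a second GGN codon, AAA or AAG, and then ACN, TCN, AGT or AGC, on the coding strand only. In the longest coding transcript of each gene in GENCODE 29, ABCA4 (2273 codons) and ABCA13 (5058 codons) hold 2 matches each and ABCD4 (606 codons) holds 1. The pattern occurs in 4.60% of 19702 protein-coding genes and in 47 of the 48 ABC family genes. The stretches of ABCA13 and ABCD4 are shown 5′ to 3′ to set the chain with a pair of motifs beside the chain with a single motif, with the 8 motif codons in capitals.
ABCA13, first: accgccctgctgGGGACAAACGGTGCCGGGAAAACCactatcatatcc
ABCA13, second: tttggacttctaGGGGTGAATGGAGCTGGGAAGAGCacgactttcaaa
ABCD4: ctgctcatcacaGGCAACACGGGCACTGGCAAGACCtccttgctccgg
On GRCh38, the first ABCA13 stretch runs across the junction of exons 37 and 38 of 62 (chr7:48389177-48391924, plus strand). The second lies in exon 55 (chr7:48528239-48528286). The ABCD4 stretch lies in exon 12 of 19 (chr14:74290322-74290369, minus strand). A match describes the coding sequence and is not a measure of RNA level.

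ABCA4 was higher in PC9-GR. It measured 9.17, 7.67 and 7.90 FPKM in the PC9 libraries and 22.6, 24.7 and 25.2 FPKM in the PC9-GR libraries. In bulk RNA, more cells with ABCA4 transcript and more transcript per cell cannot be told apart. The groups did not overlap, and 13.4 FPKM separated the highest PC9 library from the lowest PC9-GR library. The means were 8.25 ± 0.809 FPKM (SD, n = 3) in PC9 and 24.2 ± 1.37 FPKM (SD, n = 3) in PC9-GR, a 2.93-fold difference. On the log2(FPKM + 1) scale, which understates changes of low genes, PC9-GR exceeded PC9 by 1.45 with a standard error of 0.11 and a 95% interval of 1.20 to 1.69. The moderated test of limma gave an adjusted p of 1.60e-06 over 1207 tested genes. With all libraries scaled to the same total over the listed genes, the difference was 2.19.

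ABCD4 was lower in PC9-GR. The PC9 libraries measured 20.3, 19.8 and 17.6 FPKM, and the PC9-GR libraries 6.40, 8.29 and 7.165 FPKM. Again the groups did not overlap, with a gap of 9.28 FPKM. Mean levels were 19.2 ± 1.46 FPKM (SD, n = 3) in PC9 and 7.29 ± 0.950 FPKM (SD, n = 3) in PC9-GR, so PC9 was 2.64-fold higher. The log2(FPKM + 1) difference was -1.29 with a standard error of 0.12 and a 95% interval of -1.57 to -1.02 (limma, adjusted p = 5.89e-06). Its size depended on scaling: with equal library totals the difference was -0.56 (limma, adjusted p = 0.00239).

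ABCA13 was close to absent in PC9 and low in PC9-GR. Its PC9 libraries measured 0.0403, 0.0240 and 0.0869 FPKM, and its PC9-GR libraries 0.457, 0.268 and 0.428 FPKM. All PC9-GR libraries lay above all PC9 libraries, by at least 0.181 FPKM. The mean went from 0.0504 ± 0.0326 FPKM (SD, n = 3) to 0.384 ± 0.102 FPKM (SD, n = 3), a ratio of 7.63 that rests on a very low PC9 level. ABCA13 stayed below the filter of at least 1 FPKM in at least 3 libraries, so it was tested alone. A two-sided exact permutation of the libraries gave p = 0.1; with 3 against 3 no smaller p exists, so 0.05 was out of reach. The log2(FPKM + 1) difference of 0.40 became 1.69 with a pseudocount of 0.1, where the exact permutation p was again 0.1. Fitted by limma without the filter, ABCA13 passed with an adjusted p of 0.00134, as did 97.1% of the 1705 genes in that fit, so the call does not set it apart.

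**Figure D1:**
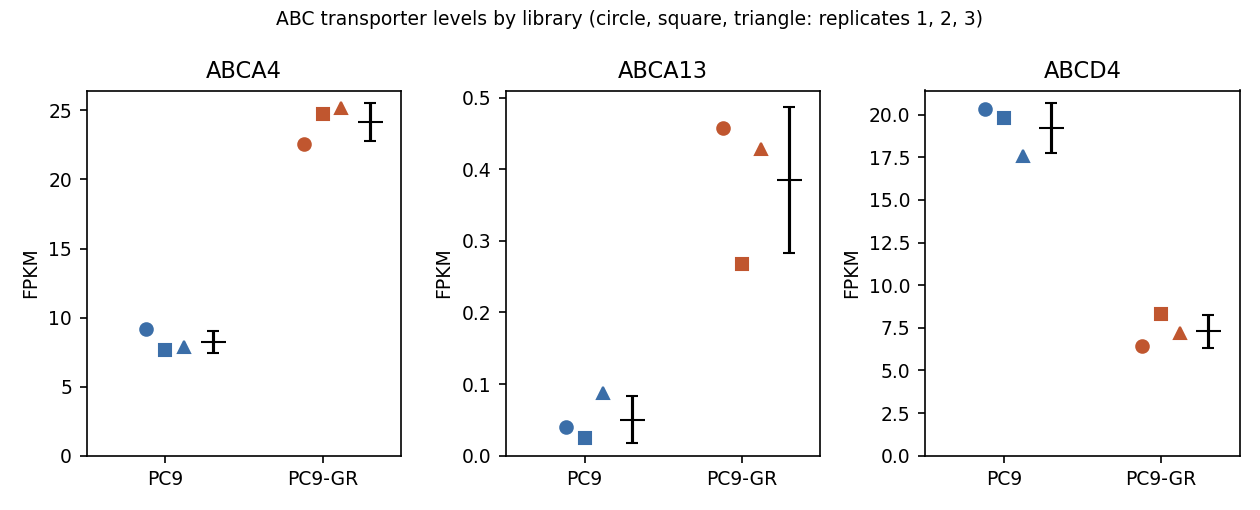
FPKM of ABCA4, ABCA13 and ABCD4 in each library (y axis, linear from 0, a separate range for each gene) for PC9 and PC9-GR (x axis). Symbols are replicates 1, 2 and 3, and the black bar beside them is the mean with its SD; ABCA4 and ABCA13 libraries of PC9-GR lie above those of PC9, and ABCD4 libraries lie below.

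**Figure D2:**
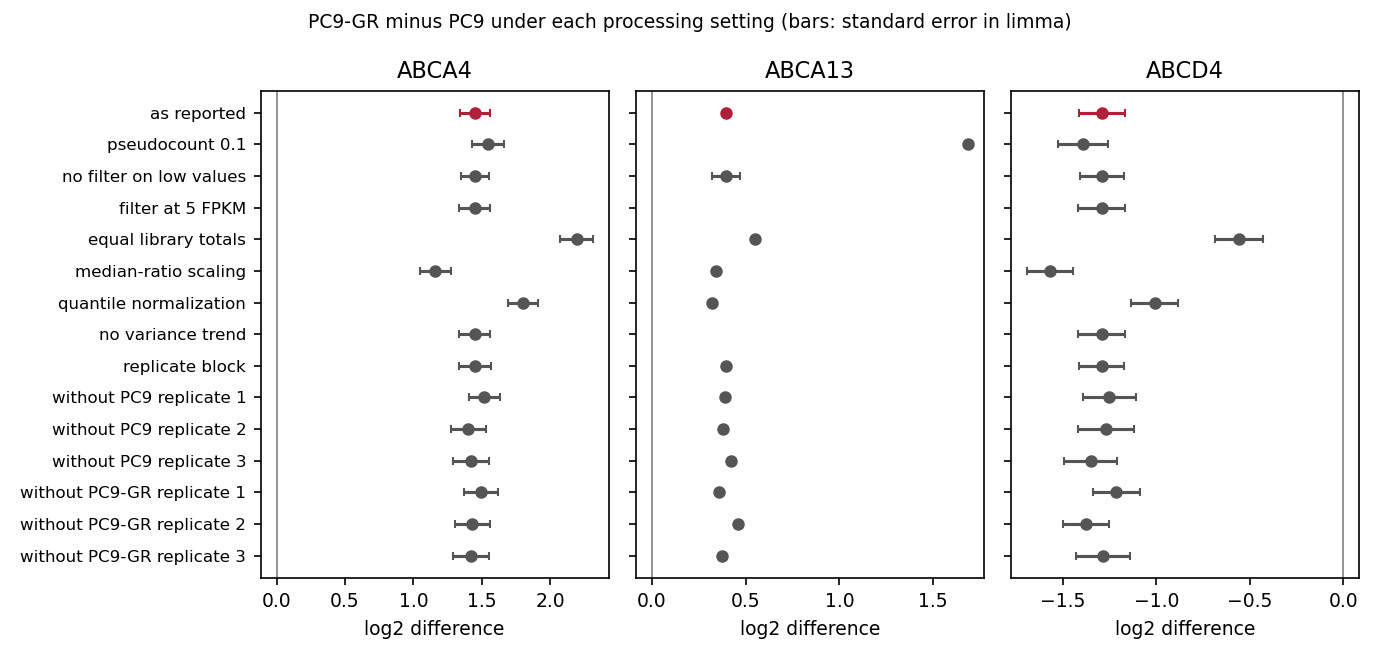
Difference between PC9-GR and PC9 on the log2 scale (x axis, a separate range for each gene) for each processing setting (y axis), with limma standard errors as bars where limma was used. The red point is the value as reported; ABCA4 and ABCA13 stay above 0 and ABCD4 below 0 in every setting shown, with the largest shifts under equal library totals (2.19 and -0.56 for ABCA4 and ABCD4) and, for ABCA13, a pseudocount of 0.1 (1.69).

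These calls have to be read against the table. Both transporters that could be tested by limma were called, ABCA4 higher and ABCD4 lower, but 99.7% of the 1207 tested genes were called, 48.4% higher and 51.3% lower. The groups did not overlap for any of the 3 transporters, as for 94.8% of listed genes. Being called or not overlapping therefore does not set these genes apart. Nor do the sizes: of 587 tested genes with a higher mean in PC9-GR, 72.7% had a smaller difference than ABCA4, and of 620 with a lower mean, 60.8% had a smaller one than ABCD4. The replicates of both were fairly tight. Their pooled SDs on the log2 scale were 0.104 for ABCA4 and 0.139 for ABCD4, against a median of 0.162 over tested genes.

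The deposited group values lay close to the library means, with ABCD4 the farthest from them at 19.9 and 7.61 FPKM in the authors' deposited table. The authors' deposited table gives ABCA4 a log2 ratio of 1.55, ABCA13 one of 2.97 and ABCD4 one of -1.38. Its q-values are 0.000285 for ABCA4 and ABCD4 and 0.0125 for ABCA13. The authors' ratio has no pseudocount, so its value for ABCA13 is not on the log2(FPKM + 1) scale used above.

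The order of the 3 transporters by FPKM, which is per length of transcript, was not the same in the lines. In PC9 the order was ABCD4, ABCA4 and ABCA13, and ABCD4 exceeded ABCA4 by 2.22-fold, 2.58-fold and 2.22-fold in replicates 1, 2 and 3. In PC9-GR the order was ABCA4, ABCD4 and ABCA13, and ABCA4 exceeded ABCD4 by 3.53-fold, 2.98-fold and 3.51-fold. This ratio is taken within a library, so a scaling that multiplies a library by a constant (equal totals or median ratio) does not change it, while quantile normalization can. ABCA13 was lowest in all 6 libraries, with ABCA4 at 90.9 to 319.5 times its level in PC9 and 49.5 to 92.4 times in PC9-GR. Among the listed genes, 75.5% had a lower mean than ABCA4 in PC9 and 91.4% in PC9-GR. For ABCD4 these shares were 85.4% and 76.3%, and for ABCA13 2.29% and 14.1%.

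Length matters for how much sequence stands behind these values. The longest coding transcripts in GENCODE 29 are 17184 bases for ABCA13, 7309 bases for ABCA4 and 3003 bases for ABCD4. If all fragments came from these transcripts, ABCA13 would stand for 0.412 to 1.49 of every 1000000 fragments in PC9 and 4.60 to 7.85 in PC9-GR. ABCD4 would stand for 52.8 to 61.0 of every 1000000 in PC9 and ABCA4 for 56.0 to 67.0, so in PC9 the fragment yield of these genes was similar although the FPKM of ABCD4 was higher. In PC9-GR, ABCD4 would stand for 19.2 to 24.9 and ABCA4 for 165 to 184. On this assumption ABCA13 had fewer fragments than either in both lines. Its replicates varied most: the SD was 64.8% of the mean in PC9 and 26.5% in PC9-GR, against 5.68% to 13.0% for ABCA4 and ABCD4.

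No other gene of the ABC family list is in the table. Of 48 family genes, these 3 are listed, with 1 called higher and 1 called lower by limma. Of all tested genes, 48.4% were called higher and 51.3% lower. Of 11 drug efflux transporters, among them ABCB1, ABCG2 and ABCC1, 0 are listed. The selection cannot say whether the unlisted ones are expressed, and their levels were not analysed here. The median log2 difference of the 2 tested family members was 0.08, against -0.63 over all 1207 tested genes, but these are a single higher and a single lower gene.

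Retinoids are the substrate class of ABCA4, and the listed genes that handle them lay in both directions. Of 32 list members 5 are listed and 4 were tested: ABCA4 was called higher and LRAT, RDH10 and ALDH1A2 were called lower by limma, with a median log2 difference of -1.05 against -0.63 over all tested genes. Of all tested genes 51.3% were called lower, so a count of 3 among 4 is no result about the list. Nor is the median: tested genes with a lower mean had a median difference of -1.14, and those with a higher mean one of 1.1. LRAT, which stores retinol as its ester, measured 12.2, 17.3 and 23.5 FPKM in PC9 and 4.15, 4.13 and 6.70 in PC9-GR. RDH10, which oxidises retinol to retinal, measured 12.8, 11.2 and 9.85 FPKM in PC9 and 5.22, 6.05 and 5.25 in PC9-GR. Neither gene's groups overlapped, as for 94.8% of listed genes. RDH10 lost its call with equal library totals, where its difference was -0.20 (limma, adjusted p = 0.189). ALDH1A2, which makes retinoic acid from retinal, was variable in PC9 at 1.98, 5.64 and 4.63 FPKM, and measured 1.28, 0.882 and 1.17 FPKM in PC9-GR. The retinoic acid receptor gene RARB went the other way from these enzymes. It was below the filter, at 0.175, 0.269 and 0.0667 FPKM in PC9 and 0.601, 1.30 and 0.970 in PC9-GR, and without the filter limma gave an adjusted p of 0.00155, in the fit that called 97.1% of genes. Of 11 photoreceptor markers only PDE6B, a rod phosphodiesterase subunit, is listed, at 0.392 to 1.33 FPKM in PC9 and between 1.45 and 2.41 in PC9-GR. It was called higher by limma, but not under quantile normalization (adjusted p = 0.0603).

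Of 21 genes for cobalamin uptake and use, ABCD4 and AMN are listed, and both were called lower by limma, as were 51.3% of all tested genes. AMN is the membrane partner of cubilin in the uptake of cobalamin bound to intrinsic factor. It measured 4.25, 3.81 and 4.24 FPKM in PC9 and 0.460, 1.05 and 0.690 in PC9-GR, a 5.58-fold difference (limma, adjusted p = 6.22e-06). Both genes lie on chromosome 14, where the authors' ratio was under 1 for 74 of 93 listed genes. LMBRD1, the lysosomal partner of ABCD4, and the other members of this list are not in the table. Of 20 lysosomal membrane proteins and enzymes in a separate list, 0 are listed. That list does not cover every lysosomal gene: NPC2, described below, acts inside lysosomes and is in the table. The count is therefore no statement about lysosomal genes as a whole.

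Sterol handling was covered because the A subfamily includes lipid exporters. Of 16 genes for sterol efflux and targets of the LXR receptors, NPC2 and APOE are listed, and ABCA1 and ABCG1 are not. NPC2, which carries cholesterol inside lysosomes, measured 428.6, 464.9 and 417.8 FPKM in PC9 and 99.4, 127.5 and 126.9 in PC9-GR. APOE, the apolipoprotein that accepts exported lipid, measured 15.7, 9.27 and 9.91 FPKM in PC9 and 49.6, 68.8 and 46.1 in PC9-GR. Limma called NPC2 lower and APOE higher, and neither gene's groups overlapped. Neither point sets them apart, since 99.7% of tested genes were called and 94.8% of listed genes did not overlap. NPC2 is also among the closest listed neighbours of ABCD4.

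**Figure D3:**
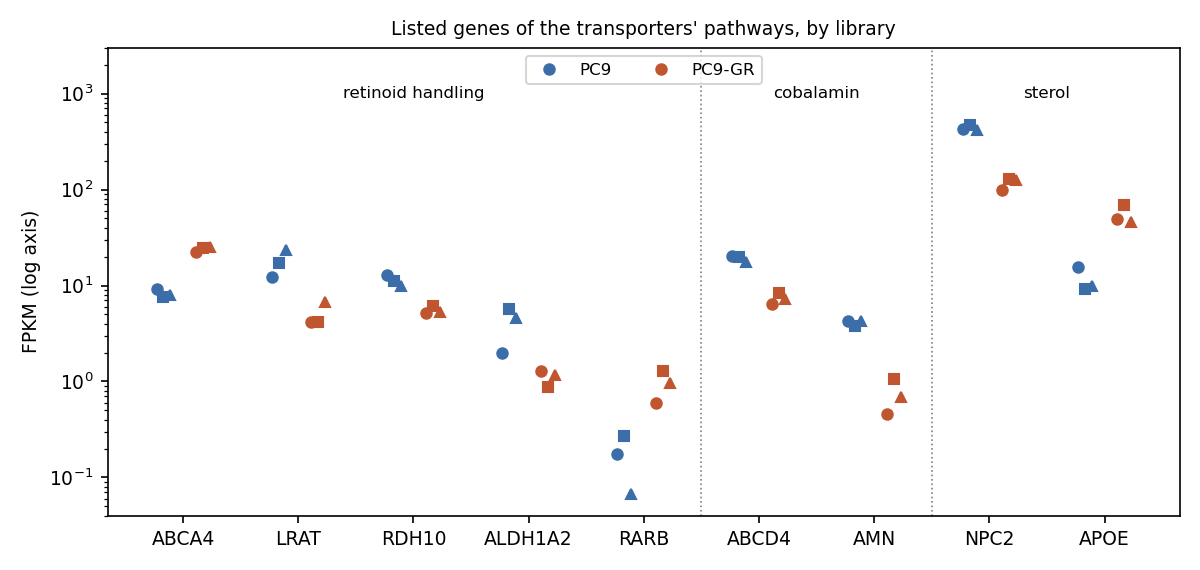
FPKM (y axis, log scale) by library for the listed genes of the retinoid, cobalamin and sterol lists, with PC9 in blue and PC9-GR in orange and the symbols standing for replicates 1, 2 and 3. ABCA4, RARB and APOE are higher in PC9-GR, and the other 6 genes are lower.

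The transporters lie on separate chromosomes, and the listed genes around them differ. ABCA4 (ENSG00000198691) is placed on chromosome 1 at 94458392 to 94586688, ABCA13 (ENSG00000179869) on chromosome 7 at 48211054 to 48687092, and ABCD4 (ENSG00000119688) on chromosome 14 at 74752125 to 74769759. These are the loci of the deposited table, whose build is not named, and distances below come from that table alone. The build is not GRCh38, since the GRCh38 position of the ABCD4 motif lies outside the listed ABCD4 locus. The motif coordinates given above cannot be placed on these loci. Some listed genes share an identical locus, so a distance runs to the edge of a listed locus, which need not be the edge of the gene. The loci of the 3 transporters have the lengths of the genes, at 128297, 476039 and 17635 bp against 128298, 476039 and 17634 bp in GENCODE 29. GENCODE 29 places no other gene over ABCA4 or ABCA13. Within ABCD4 it places AC005519.1, a transcript on the same strand.

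ABCD4 had lower genes on both sides. Within 2 Mb of it, all 23 other listed genes had a lower mean in PC9-GR, and the 20 that were tested were called lower by limma, also with equal library totals. Over all listed genes, the share with an authors' ratio under 1 was 48.9%, and 51.3% of all tested genes were called lower. ABCD4 is the fifth in a stretch of 41 consecutive listed genes with a lower ratio, and its own change is among the smaller ones there. By the authors' log2 ratio, 36 of the 41 are more negative than its -1.38, around a median of -1.77. On the log2(FPKM + 1) scale, 28 of the 36 tested genes in the stretch are more negative than its -1.29, around a median of -1.66.

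The nearest neighbours show the same order of size. LIN52, a subunit of a cell cycle gene repressor complex, lies 84189 bp before ABCD4 and measured 10.96, 11.4 and 10.03 FPKM in PC9 and 4.82, 4.88 and 4.64 in PC9-GR. ALDH6A1, a mitochondrial enzyme of valine breakdown, measured 9.97 to 11.4 FPKM in PC9 and between 3.18 and 4.11 in PC9-GR. NPC2 and ISCA2, a mitochondrial iron-sulphur assembly factor, share a locus 173135 bp after ABCD4, so reads could be split between them. ISCA2 was 3.29-fold and NPC2 3.71-fold lower in PC9-GR, each more than the 2.64-fold of ABCD4. TTC9, which lies 3610048 bp before ABCD4, and the non-coding RP3-449M8.9 were called lower as well, 3.31-fold and 5.01-fold. A further entry, AC005519.4, has exactly the locus of ABCD4. Its FPKM stood at 3.23% to 6.44% of that of ABCD4 in PC9 and at 3.24% to 6.30% in PC9-GR. FPKM is per length of transcript, so these are not shares of reads. How reads were split between the entries was not tested. Whether the change of ABCD4 is part of a change of the whole stretch was not tested, and the table holds no measure of DNA copy number.

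ABCA4 had no such surroundings. Within 2 Mb, 2 of the 4 other listed genes were higher and 2 lower. The closest before it, the unclassified transcript RP11-488P3.1, was 145686 bp away and fell 8.14-fold, from 33.9 to 4.17 FPKM, while ABCA4 rose. EPHX4, an epoxide hydrolase family member, was also called lower (2.07-fold), but not with equal library totals (limma, adjusted p = 0.0636). HFM1, a meiotic helicase, and the transcript RP4-639F20.1 were called higher, 2.59-fold and 3.08-fold. RP11-148B18.4 and RP5-1070A16.1 were below the filter, with means of 0.436 and 0.145 FPKM in PC9 and 0.866 and 0.550 in PC9-GR. On the whole of chromosome 1, 108 of 168 listed genes had a higher authors' ratio.

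ABCA13 also had neighbours in both directions, 2 higher and 2 lower within 2 Mb. SUN3, a nuclear envelope protein, lies 142338 bp before it and was called higher by limma, from 0.605 to 3.24 FPKM. DDC, the decarboxylase that makes dopamine and serotonin, is the next listed gene after it and was low in both lines, at 0.113 FPKM in PC9 and 0.481 in PC9-GR. COBL, an actin regulator, was called lower from 18.8 to 6.60 FPKM. AC004870.4 and EPS15P1, both below the filter, were lower with means of 0.927 and 1.01 FPKM in PC9 and 0.408 and 0.127 in PC9-GR. KCTD7, more than 17 Mb away, was called higher 2.05-fold, but not under quantile normalization (limma, adjusted p = 0.0589).

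**Figure D4:**
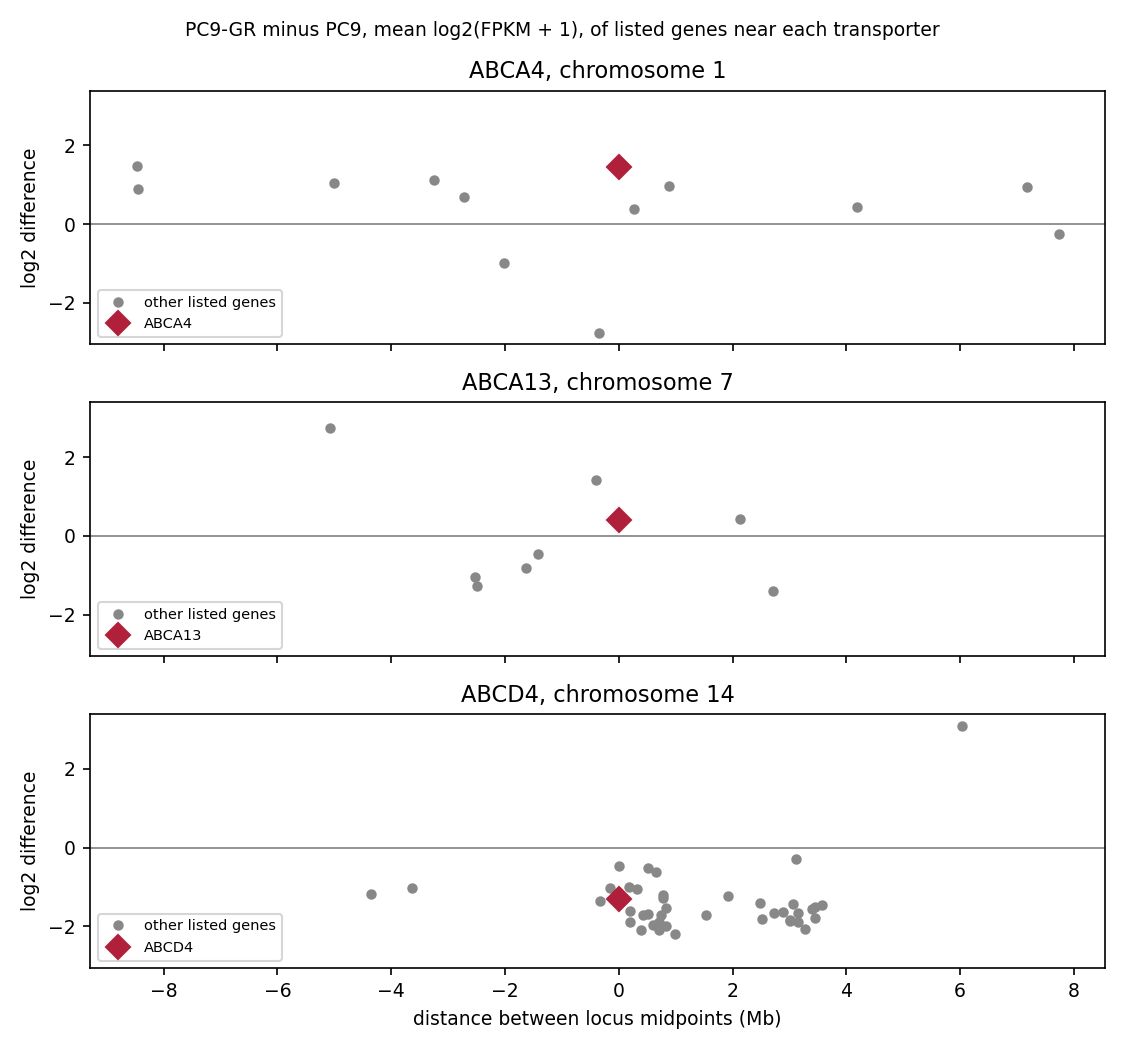
Difference between PC9-GR and PC9 in mean log2(FPKM + 1) (y axis) of listed genes against the distance of their locus midpoint from that of each transporter in Mb (x axis), within 10 Mb. Grey points are other listed genes and the red diamond is the transporter; 40 of 41 genes around ABCD4 are below 0, against 3 of 12 around ABCA4 and 5 of 8 around ABCA13.

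The genes whose profile over the 6 libraries was nearest to each transporter were found by the root mean square distance between log2(FPKM + 1) values centred on the gene's mean. Since the listed genes were chosen for a difference between the lines, nearness mainly reflects an equal size of difference, and it is given as a description. For ABCA4 these were OLFM2, RP11-383H13.1 and TTLL7, at distances of 0.050, 0.066 and 0.069. OLFM2, a secreted olfactomedin, measured 3.55 to 4.07 FPKM in PC9 and between 11.7 and 11.98 in PC9-GR. For ABCD4 they were SFRP1, a secreted Wnt antagonist, the linker histone H1F0 and the membrane protein EMP1, at 0.060, 0.062 and 0.063. SFRP1 measured 25.1 to 26.7 FPKM in PC9 and between 8.47 and 11.9 in PC9-GR. In PC9-GR, replicate 2 was the highest and replicate 1 the lowest library for ABCD4 and for these 3 genes. They lie on chromosomes 8, 22 and 12. For ABCA13 they were LINC00342, the neurokinin receptor gene TACR2 and C12orf39, at 0.043, 0.049 and 0.049, all below the filter and at 0.603 FPKM or less in every library.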

How the data were processed

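Total RNA of 3 PC9 and 3 PC9-GR cultures was extracted with Trizol and made into strand-specific libraries with an Agilent SureSelect kit, per the labels' protocols. TopHat and Cufflinks were used, per the submitters' processing notes. No version is stated there, and the build, annotation and strand setting are likewise not given in the sources used. The authors deposited FPKM per library and per group, per the file headers. Per the file headers they also deposited p-values and q-values, and the group ratio (PC9-GR over PC9) on a linear and a log2 scale. Each library column was matched to its sample by name.

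From these, log2(FPKM + 1) was tested over 1207 of 1705 listed genes, those reaching 1 FPKM in 3 or more libraries. The test was limma 3.58.1 in R 4.3.3, two-sided, with no term beside the group, a trended prior variance, Benjamini-Hochberg adjustment and a call at adjusted p under 0.05. It was tested on simulated data. ABCA13, below the filter, got an exact permutation test, also two-sided. Fold values are ratios of mean FPKM. Sequences, transcript lengths and overlapping genes came from GENCODE 29 (GRCh38); other steps used Python 3.11.15.

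The transporters and gene lists were chosen with earlier results of these data known. Named genes are the 3 transporters, listed members of the ABC, drug efflux, cobalamin, retinoid, sterol and lysosome lists, markers of other cell types, the 3 nearest listed genes on either side and any with an overlapping locus, and the 3 nearest profiles. The alternatives were another pseudocount, other filters, 3 scalings, no variance trend, a replicate block and leaving out each library. Depth is unknown, so no counting interval is given.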

Additional observations from a re-analysis of the deposited data

How the results depend on the processing

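ABCA4 and ABCD4 kept their direction and their limma call in all 14 alternatives. The log2 difference of ABCA4 ran from 1.16 (median-ratio scaling) to 2.19 (equal library totals), and that of ABCD4 from -1.57 to -0.56 under the same scalings. Equal totals moved the median tested gene by 0.61 and median-ratio scaling by -0.23 on the log2 scale. Leaving out a library gave 1.40 to 1.52 for ABCA4, -1.38 to -1.21 for ABCD4 and 0.36 to 0.46 for ABCA13. ABCA13 kept its direction in all 12 alternatives that gave a value and passed 0.05 in 1 of them, limma without the filter (0.40, adjusted p = 0.00134), a fit that called 1656 of 1705 genes. It had no value with the filter at 5 FPKM, and the variance trend does not enter its exact permutation test. The count of called genes over the table was 1203, and 627 with the filter at 5 FPKM, where 629 genes were tested. It was 1192 to 1198 without 1 library. With equal totals 586 genes were called higher and 433 lower, against 584 and 619. Same-numbered PC9 and PC9-GR libraries had correlations of their deviations of -0.0977, 0.0822 and 0.164. Of these libraries, 2 of 3 PC9 and 1 of 3 PC9-GR correlated best with their own number. Such weak correlations from 3 libraries per group cannot decide whether the numbers pair the samples, so the block was kept as an alternative. With a replicate block the differences were 1.45, 0.40 and -1.29 for ABCA4, ABCA13 and ABCD4, the exact permutation p of ABCA13 within pairs was 0.25, the smallest 3 pairs allow, and 1205 genes were called. Of 32 named genes tested, 0 changed sign and 4 lost their call in some alternative: EPHX4, KCTD7, PDE6B and RDH10. The cause of these changes was not tested. The depth of the libraries is unknown, and its effect on these values was not measured.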
